A study of Homo sapiens with 16 samples.

Results

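Glutathione peroxidases and peroxiredoxins, the enzymes that reduce hydrogen peroxide and lipid hydroperoxides inside cells, were followed in RNA from 2 human lung cell lines. The genes were picked by symbol, GPX1 to GPX4 and PRDX1 to PRDX6, 10 of the 23709 RefSeq genes listed, and all 10 were found. The choice of these families was made with earlier results on GPX1 and PRDX2 in these libraries known, so the split of these 2 genes between the lines is a description. H1299 cells, from a lung carcinoma of the non-small cell type, had received by lipid transfection either the plasmid pCMV-N-Flag-FLII, which drives Flag-tagged FLII from a CMV promoter, or empty pCMV-N-Flag (vector). HBE, a bronchial epithelial line, carried either a stably integrated lentiviral short hairpin RNA against FLII (shFLII) or its control (NC). FLII, or flightless I, remodels actin, and the study asked how it bears on the abundance, ribosome association and location of mRNA. Each of these 4 cultures gave mRNA, cytosolic RNA, nuclear RNA and RNA bound in ribosome-nascent chain complexes (RNC), 16 libraries in all. All cells were at passage 15 to 18; the labels do not say whether the modified cells were clones or pools.

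There was 1 library per group, so every fold compares libraries and not conditions. The 95% interval beside each log2 fold is that of counting error alone. Genes were called where the interval left out a log2 fold of 0 and the change was 2-fold or more, and a gene needed 20 or more reads in the 2 libraries together. Assigned reads totalled 5914489 to 9259569 in the mRNA, cytosol and nuclear libraries and 26711771 to 38514467 in the RNC libraries. FLII itself (NM_002018) stood at 143 and 625 RPKM (reads scaled to transcript length and library size) in H1299 vector and FLII mRNA, and at 75.3 and 13.8 RPKM in HBE NC and shFLII mRNA, and it followed the labels in cytosol and nuclear RNA too. Of 12 epithelial and basal markers, all 12 reached 1 RPKM in some HBE library and 9 in some H1299 library, with a summed level of 3930 to 5811 RPKM in HBE and 12.6 to 89.8 RPKM in H1299. Of 8 mesenchymal markers, 6 reached 1 RPKM in some H1299 library and 4 in some HBE library. They summed to 684 to 2985 RPKM in H1299 and 4.53 to 108 RPKM in HBE, although the labels call both lines epithelial. In H1299 vector mRNA that sum was nearly all VIM (2949 RPKM). VIM had at most 2.91 RPKM in HBE, so the upper HBE sum came mostly from other markers. In RNC, 2 of the 4 libraries went against their labels. The one labelled H1299 FLII held genes typical of HBE at a median of 92.1% of their level in HBE NC cytosol, and the one labelled HBE shFLII held them at 1.24%. FLII there stood at 89.2 and 5.61 RPKM in the libraries labelled H1299 vector and FLII, against the label. In the RNC libraries labelled HBE NC and shFLII it stood at 36.5 and 30.0 RPKM. The RNC library labelled HBE NC also held 14888 reads of VIM, a mesenchymal gene with 49 reads in HBE NC mRNA. RNC values are therefore given by label alone and stay out of the contrast of the lines.

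Both families use a reactive residue that the peroxide oxidises. In most glutathione peroxidases this is selenocysteine, inserted at a UGA codon that would otherwise end translation, and glutathione returns the enzyme to its reduced form. Peroxiredoxins use a cysteine instead and are mostly recycled by thioredoxin. GPX1 is the abundant cytosolic and mitochondrial form, GPX2 the form of the gut and other epithelia, GPX3 the secreted form, and GPX4 the form that reduces phospholipid hydroperoxides within membranes and restrains ferroptosis. PRDX1 and PRDX2 are cytosolic, PRDX3 is mitochondrial, PRDX4 works in the endoplasmic reticulum, PRDX5 is found in mitochondria, peroxisomes and cytosol, and PRDX6 has a single catalytic cysteine and also a phospholipase activity.

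The codon of that residue shows the split between the families. The glutathione peroxidase transcripts are shown around the annotated selenocysteine codon, in capitals, which is TGA in all 4 (written as DNA, 5′ to 3′, from GENCODE version 29 on GRCh38).
GPX1: gtggcgtccctcTGAggcaccacggtccgg
GPX2: gtggcttcgctcTGAggcacaaccacccgg
GPX3: gtggccagctacTGAggcctgacgggccag
GPX4: gtggcctcccagTGAggcaagaccgaagta
In the peroxiredoxins the peroxidatic cysteine, in capitals, was located by the active-site motif of the family and is encoded by TGC or TGT.
PRDX1: ttcacctttgtgTGCcccacggagatcatt
PRDX2: ttcacttttgtgTGCcccaccgagatcatc
PRDX3: ttcacctttgtgTGTcctacagaaattgtt
PRDX4: ttcacatttgtgTGTccaactgaaattatc
PRDX5: ttcacccctggaTGTtccaagacacacctg
PRDX6: tttaccccagtgTGCaccacagagcttggc
The codon of GPX1 is number 49 of its reading frame, in a coding exon at chr3:49358132-49358134 (GRCh38, minus strand), and that of PRDX2 is number 51, in a coding exon at chr19:12801020-12801022 (minus strand). These 2 genes, 1 from each family, differed most between the control cells of the 2 lines among members with reads in both.

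GPX1 was close to the limit of detection in H1299 and among the abundant members in HBE. In mRNA it had 2.84 RPKM in H1299 vector and 1.72 RPKM in H1299 FLII, against 536 RPKM in HBE NC and 673 RPKM in HBE shFLII. In cytosolic RNA it had 1.46 and 16.9 RPKM in H1299 vector and FLII, against 3135 and 3361 RPKM in HBE NC and shFLII. In nuclear RNA it had 0.940 and 2.50 RPKM in H1299, against 1022 and 1059 RPKM in HBE. The lowest HBE library stood far above the highest H1299 library, which was the FLII cytosol library. In the controls GPX1 was 221-fold lower in H1299 mRNA (log2 fold −7.79, interval −8.54 to −7.19; 20 against 5245 reads). The log2 fold was −11.47 in cytosol (−12.34 to −10.84; 16 against 21938 reads) and −10.23 in nuclear RNA (−11.64 to −9.29; 7 against 8869 reads).

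PRDX2 was split between the lines in the same way. Its mRNA level was 1.84 and 1.07 RPKM in H1299 vector and FLII, against 419 and 393 RPKM in HBE NC and shFLII. In cytosolic RNA it had 1.29 and 11.4 RPKM in H1299 and 1022 and 984 RPKM in HBE. In nuclear RNA it had 0.630 and 0.617 RPKM in H1299 and 681 and 661 RPKM in HBE. As for GPX1, no H1299 library came near an HBE library, and the FLII cytosol library was the highest of the H1299 libraries. PRDX2 was 263-fold lower in H1299 vector mRNA than in HBE NC mRNA (log2 fold −8.04, −9.10 to −7.26; 11 against 3495 reads). The fold was −10.02 in cytosol (−11.06 to −9.30) and −10.15 in nuclear RNA (−12.20 to −8.96). Over all 6 contrasts of the lines, those of the FLII-modified cells included, the log2 fold ran from −11.47 to −7.79 for GPX1 and from −10.15 to −6.74 for PRDX2. Processed pseudogenes of GPX1, PRDX1, PRDX2, PRDX3 and PRDX4 are annotated on GRCh38 and are not entries of the deposited tables, so any reads shared with them cannot be told apart here.

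**Figure D1:**
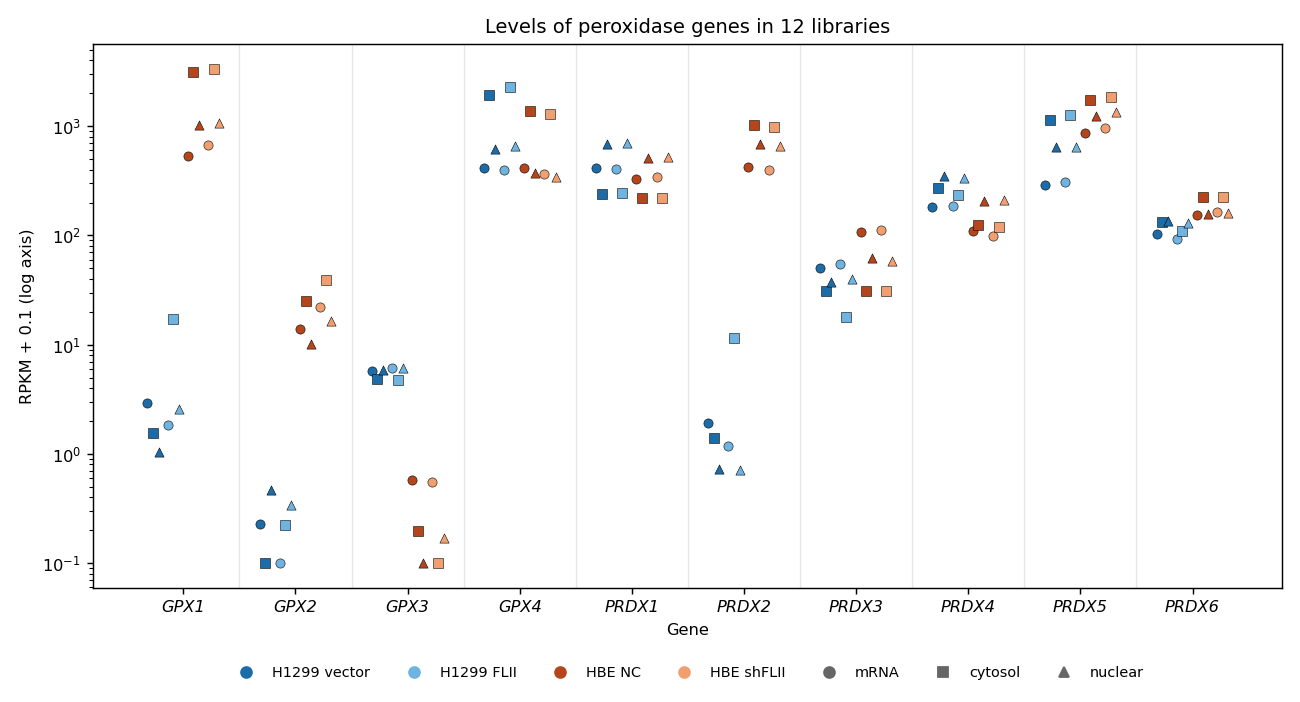
Level of each of the 10 genes in 12 libraries, as RPKM with 0.1 added on a log axis; colour gives line and treatment, shape the kind of RNA, and each point is 1 library. GPX1, GPX2 and PRDX2 lie low in every H1299 library and high in every HBE library, GPX3 the other way round, while GPX4 and PRDX1 overlap between the lines.

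The bases upstream of PRDX2 are shown because the gene was so unequal between the lines; CG dinucleotides are in capitals. The stretch of 171 bases (RefSeq, GRCh38.p14, chr19:12801860-12802030, minus strand) lies outside the annotated exons and holds 27 CG dinucleotides.
PRDX2: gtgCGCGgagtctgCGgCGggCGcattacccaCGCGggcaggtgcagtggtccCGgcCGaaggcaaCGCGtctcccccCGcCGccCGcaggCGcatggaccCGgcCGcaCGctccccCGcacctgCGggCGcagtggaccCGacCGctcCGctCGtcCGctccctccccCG
The whole window of 250 bases before the RefSeq start of PRDX2 holds 38, and 3.28% of 35116 promoter windows of that length hold as many. GPX1 has 20 in its window, a count reached by 32.4% of promoters, and GPX2 has 3. GPX4, abundant in both lines, has 33, 33 and 37 before its listed starts, and 8.15% of promoters reach 33 and 4.00% reach 37. A count near that of PRDX2 was thus also found at a gene that overlapped between the lines. Windows were listed for 8 of the 10 members. The motif GGGCGG, searched on both strands and allowing overlaps, occurs in the windows of all 8, against 42.6% of all promoters; TGACNNNGC occurs in that of GPX2 alone, against 10.9% of all promoters. These counts describe the reference sequence, since methylation and factor binding were not measured.

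The other 2 glutathione peroxidases that parted the lines were far less abundant. GPX2 had 0 to 0.368 RPKM over the 6 H1299 libraries (median 0.127) and 10.1 to 38.6 RPKM over the 6 HBE libraries (median 19.4). In control mRNA it had 1 read in H1299 and 148 in HBE, a log2 fold of −6.45 with a wide interval (−12.31 to −4.50). In control cytosol it had 0 against 191 reads, at least 138-fold lower against a floor of 3 counts. GPX3 went the other way, with 4.64 to 6.0 RPKM in H1299 and 0 to 0.480 RPKM in HBE. Its log2 fold was 3.19 in mRNA (2.15 to 4.66; 59 against 7 reads), and in nuclear RNA 64 against 0 reads put it at least 21-fold higher in H1299. GPX3 was the only member called higher in H1299 in the control pairs.

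GPX4 was abundant in both lines and overlapped between them, at 398 to 2280 RPKM in H1299 and 343 to 1376 RPKM in HBE. Its line folds stayed within −0.28 and 0.69, and no contrast called it. In H1299, GPX4 was nearly the whole of the summed glutathione peroxidase level, 97.9% to 99.7% over the 6 libraries, and GPX1 was 0.0749% to 0.735%. In HBE, GPX1 made up 55.4% to 74.7% and GPX4 24.2% to 43.1%. The summed level of the 4 genes was 405 to 420 RPKM in H1299 mRNA and 967 to 1060.5 RPKM in HBE mRNA. In cytosol the sums were 1951 to 2301 RPKM in H1299 and 4537 to 4700 RPKM in HBE, and in both kinds of RNA the lines differed by more than the 2 cultures of a line.

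**Figure D2:**
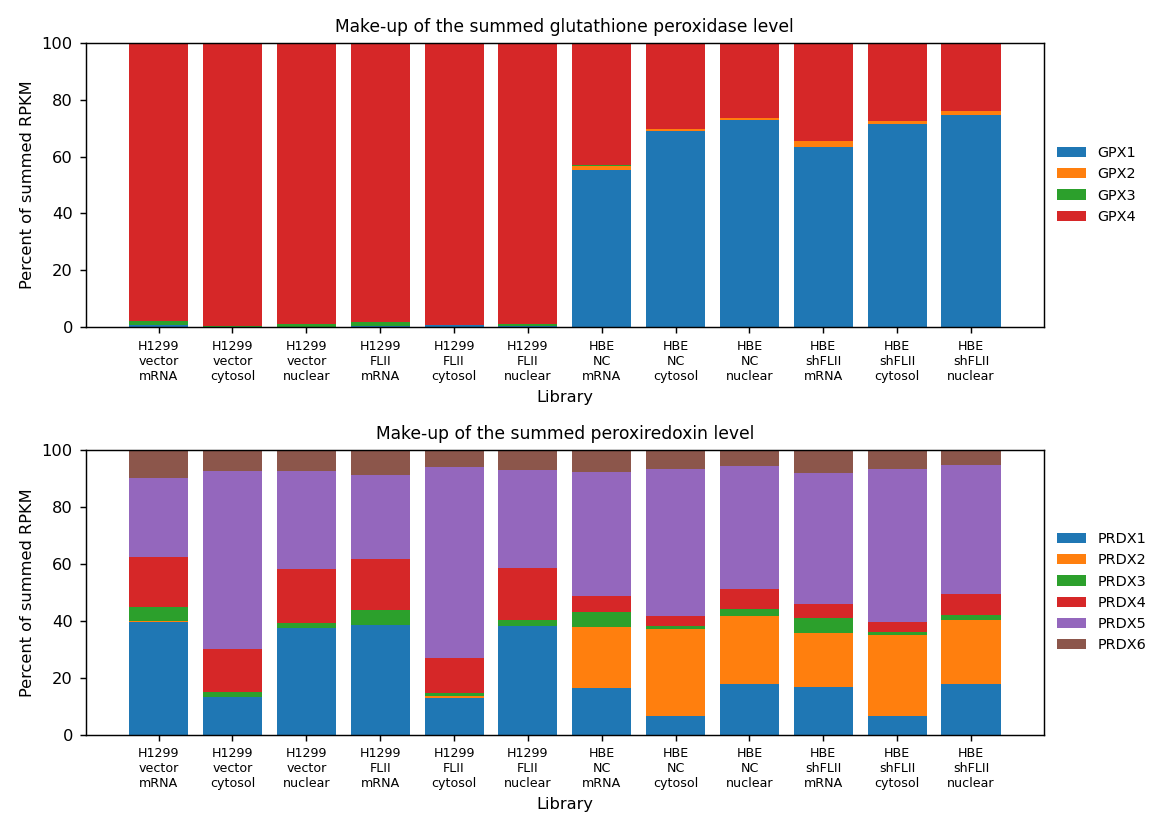
Share of each gene in the summed RPKM of its family, in percent, for 12 libraries; each bar is 1 library and reaches 100. GPX4 fills the glutathione peroxidase bars of H1299 (97.9% to 99.7%), GPX1 leads in HBE (55.4% to 74.7%), and PRDX2 takes 19.0% to 30.6% of the peroxiredoxin level in HBE only.

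The other peroxiredoxins differed less. PRDX1, at 242 to 703 RPKM in H1299 and 218 to 523 RPKM in HBE, had line folds between −0.33 and 0.20. PRDX4 had folds above 0 in each of the 6 contrasts without a call (0.44 to 0.81), at 182 to 349 RPKM against 99.5 to 209 RPKM. PRDX5 had 287 to 1256 RPKM in H1299 and 859 to 1854 RPKM in HBE, and was lower in H1299 in all 3 control pairs, with −1.85 in mRNA (−1.93 to −1.77), −1.06 in cytosol and −1.19 in nuclear RNA. With counts scaled to library totals, the cytosol and nuclear folds of PRDX5 were −0.59 and −0.94 and no longer called, nor were they against genes of like GC content (−0.48 and −0.69). PRDX3, at 17.9 to 54.5 RPKM in H1299 and 30.9 to 112 RPKM in HBE, was called in mRNA alone of the control pairs (−1.35, −1.51 to −1.20), with −0.46 in cytosol and a fold just short of the size rule in nuclear RNA (1.999 times lower). Against genes of like GC content PRDX3 was at −1.43, −1.29 and −1.23 in the 3 pairs, past the size rule in each, whereas with total counts its nuclear fold was −0.76 and its cytosol fold 0.004. PRDX6 lay between 92.0 and 134 RPKM in H1299 and between 154 and 225 RPKM in HBE, with no overlap, but was called in cytosol alone of the control pairs (−1.22, −1.31 to −1.13). That cytosol call was lost with total counts (−0.75). PRDX2 made up 19.0% to 30.6% of the summed peroxiredoxin level in HBE and 0.0333% to 0.612% in H1299. PRDX1 and PRDX5 led in H1299 mRNA and nuclear RNA. In H1299 cytosol PRDX5 led, at 62.6% in vector and 67.2% in FLII, and PRDX4 (15.0%) lay above PRDX1 (13.3%) in vector. The summed level of the 6 genes was 1037 to 1045 RPKM in H1299 mRNA and 1975 to 2071 RPKM in HBE mRNA.

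Over the 12 libraries other than RNC, 5 of 10 members separated the lines without overlap, where 26.5% of 16068 genes did: GPX1, GPX2, PRDX2 and PRDX6 lay higher in HBE (10.8% of genes) and GPX3 in H1299 (15.7%). The same 5 separated the lines without the H1299 FLII cytosol library (28.7% of genes). In the control mRNA pair 1 member was called higher and 5 lower in H1299, where 43.6% of all genes were called; in cytosol 1 and 5 (48.9%); and in nuclear RNA 1 and 4 (45.3%). Many genes differed between these lines, so the members' count is read against that share; GPX1 and PRDX2 lay near the lower end of all genes. Of all genes kept, 0.828% lay below GPX1 in control mRNA, 0.00787% in cytosol and 0.212% in nuclear RNA. For PRDX2 the shares were 0.657%, 0.228% and 0.242%. These 2 genes were known to differ between the lines when the families were chosen. Their ranks, and their part in the member counts and median given here, are therefore description and no test. In the FLII-modified pairs 1 member was higher and 5 lower in mRNA (42.1%) and in cytosol (45%), and 1 higher and 4 lower in nuclear RNA (46%). The median log2 fold of the members in control mRNA was −1.10, against −0.01 over all genes. GPX3 was called higher in all 3 control pairs (13.1% of genes), and GPX1, GPX2, PRDX2 and PRDX5 were called lower in all 3 (13.9%). With total counts or RPKM the cytosol pair had 2 members higher and 3 lower, PRDX4 then passing at 1.14. The median of all genes there moved by 0.46 with total counts, which called 38.2% of them higher and 15.1% lower, and by 0.29 with RPKM.

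**Figure D3:**
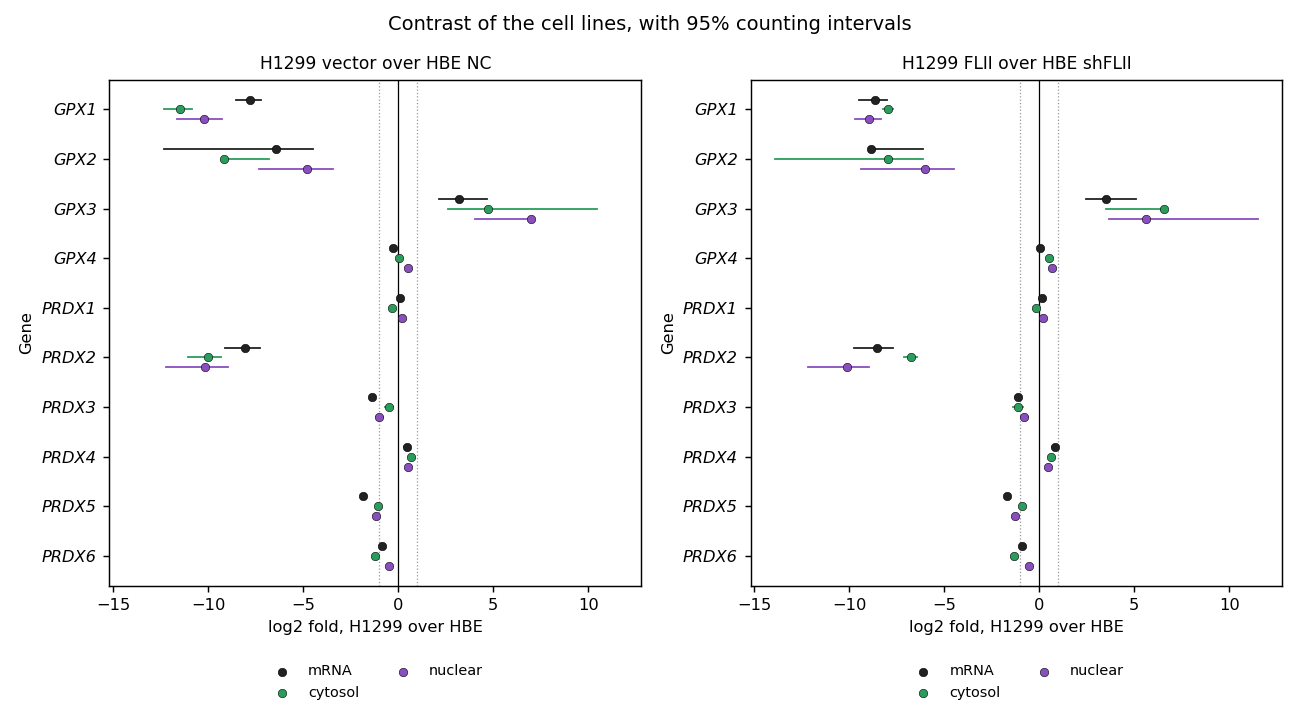
The log2 fold of H1299 over HBE for each gene in mRNA, cytosol and nuclear RNA, left for the control cells and right for the FLII-modified cells; lines are 95% counting intervals, those next to a count of 0 ending at the point (which then depends on the reads added), and dotted lines mark a fold of 2. GPX1 and PRDX2 lie between −11.47 and −6.74, and GPX4, PRDX1 and PRDX4 within the dotted lines.

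The genes whose levels followed GPX1 most closely over these 12 libraries were MT1E, C5orf38, RHOD, MDFI and KRT81, with Pearson r of 0.996 to 0.998 on log2 counts scaled to library size. For PRDX2 they were TINAGL1, KRT81, LAD1, GJB5 and MT1E, with r of 0.997 to 0.999. MT1E, a metallothionein whose near-identical relatives may share its reads, had 0 to 11.1 RPKM in H1299 and 341 to 1209 RPKM in HBE. KRT81, a hair keratin, had 2.16 to 40.3 RPKM in H1299 and 1168 to 4356 RPKM in HBE. PRDX2 was 12th among the 11568 genes compared with GPX1, and GPX1 17th for PRDX2 (r = 0.995). The 12 libraries fall into the 2 lines, a split that all these genes share: 8.44% of the genes reached r of 0.9 with GPX1 and 8.60% with PRDX2.

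Few members were called with FLII overexpression in H1299. In mRNA none of the 9 members kept was called, where 0.798% of 13033 genes were. GPX4 had −0.03 (−0.11 to 0.04), PRDX1 −0.02 and PRDX5 0.12 (0.03 to 0.22). GPX1 (−0.69, −1.73 to 0.30; 17 against 20 reads) and PRDX2 (−0.73, −2.21 to 0.65; 9 against 11 reads) rested on few reads, and their intervals held both directions. In nuclear RNA GPX1 was the only member called of 8 (1.32, 0.06 to 2.87; 0.599% of all genes), on 19 against 7 reads. That call was lost with 5 reads added, with RPKM and with 100 reads required. The other 7 had folds between −0.10 and 0.07.

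In H1299 cytosol GPX1 and PRDX2 were called higher in the FLII library, 2 of 9 members, where 1.04% of genes were called higher and 2.68% either way. GPX1 rose from 16 to 125 reads (3.56, 2.85 to 4.46) and PRDX2 from 12 to 72 reads (3.16, 2.34 to 4.25). Both stayed far below HBE: GPX1 reached 0.540% and PRDX2 1.12% of their HBE NC cytosol levels, against 0.0466% and 0.126% in the vector library. In the same library 182 genes typical of HBE stood at a median of 1.96% of their HBE NC cytosol level (quartiles 1.12% and 3.12%), against 0.176% in the vector library. Their part in the 2 calls was not tested, and in bulk RNA a few cells with high levels and a low level in every cell cannot be told apart. PRDX3, at 17.9 against 31 RPKM, had −0.72 (−0.98 to −0.46), short of the size rule. GPX4 had 0.30 (0.27 to 0.34) and PRDX5 0.21. The folds of this pair moved with GC content, with a Spearman correlation across genes of 0.52. Against genes of like GC content PRDX3 was at −0.37, GPX4 at 0.15 and PRDX5 at 0.09. On that scale GPX1 was at 3.43 and PRDX2 at 3.05. GPX3 stood at 4.64 against 4.72 RPKM (0.05, −0.49 to 0.58).

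FLII knockdown in HBE called no member. None of 9 passed in mRNA (4.95% of genes called), in cytosol (1.25%) or in nuclear RNA (0.873%), and GPX3 had too few reads to enter. The intervals of 3 members lay on 1 side of 0 in all 3 kinds of RNA, short of the size rule. GPX2 lay above 0, at 22.2 against 13.8 RPKM in mRNA (0.55, 0.25 to 0.87), 38.6 against 25 RPKM in cytosol (0.61, 0.35 to 0.88) and 16.5 against 10.1 RPKM in nuclear RNA (0.67, 0.31 to 1.05). Of all genes, 1.08% lay above 0 in all 3. GPX4 lay below 0, with −0.32 in mRNA (−0.39 to −0.25), −0.10 in cytosol and −0.15 in nuclear RNA, and PRDX2 with −0.22 (−0.29 to −0.15), −0.07 and −0.07. Below 0 in all 3 lay 1.9% of genes. Against genes of like GC content GPX4 was at −0.17 and PRDX2 at −0.13 in mRNA. With total counts the median of all genes moved by 0.13 in mRNA, 0.02 in cytosol and 0.03 in nuclear RNA. The count of members on 1 side of 0 was not repeated with that scaling. The remaining 6 members had folds between −0.28 and 0.20 in the 3 pairs. GPX1, so unequal between the lines, had 0.20, 0.08 and 0.02.

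**Figure D4:**
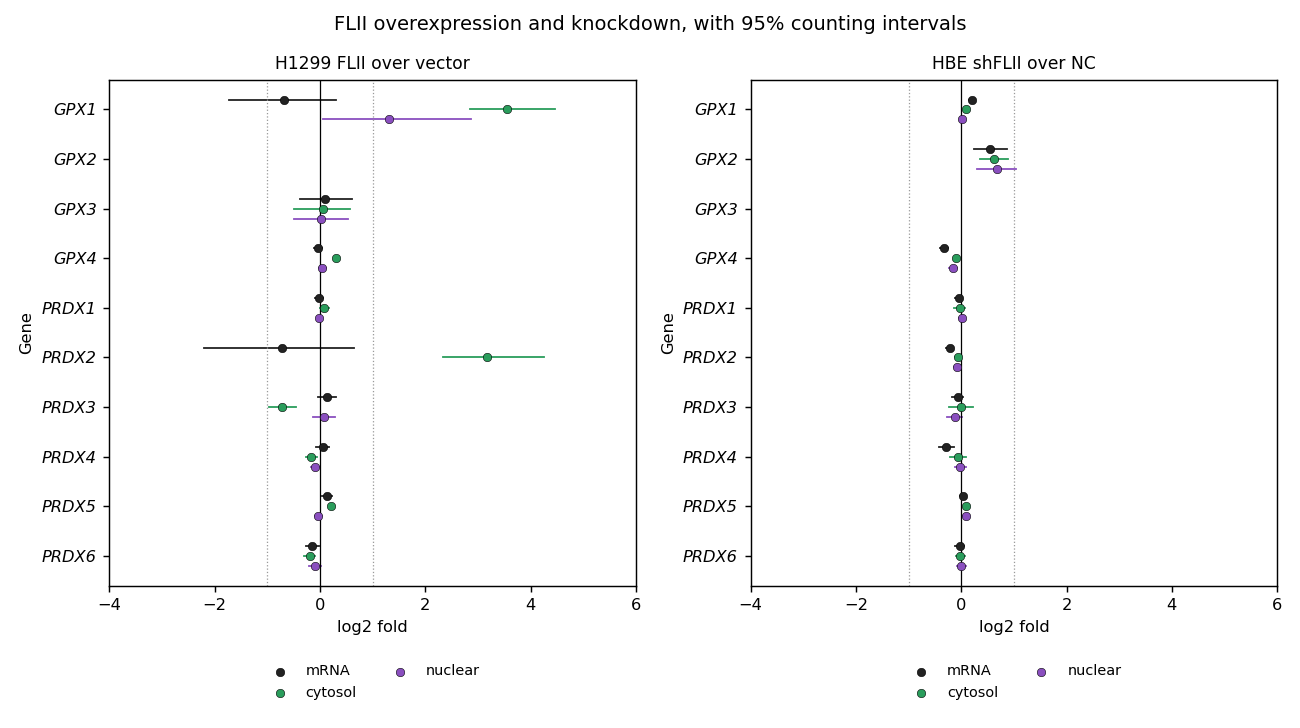
The log2 fold of FLII over vector in H1299 (left) and of shFLII over NC in HBE (right) for each gene kept, with 95% counting intervals; dotted lines mark a fold of 2. Outside them lie only GPX1 (cytosol 3.56, and nuclear 1.32 on 19 against 7 reads, a call lost with 5 reads added) and PRDX2 (cytosol 3.16) in H1299, and GPX2 in HBE lies right of 0 in all 3 kinds of RNA.

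Members differed in how they were divided between nuclear and cytosolic RNA, a ratio relative to all genes of the 2 libraries. GPX4 was called lower in the nucleus in all 4 pairs, with −1.98 in H1299 vector (−2.03 to −1.93), −2.34 in H1299 FLII, −2.43 in HBE NC and −2.48 in HBE shFLII. In H1299 vector it had 619 RPKM in nuclear and 1945 RPKM in cytosolic RNA. PRDX5 was also called lower in all 4 pairs (−1.51 to −1.02), so 2 of the 7 members kept in all were, where 9.2% of genes were. In HBE GPX1 (−2.16 in NC, −2.22 in shFLII), GPX2 (−1.83, −1.78), PRDX2 (−1.13, −1.13) and PRDX6 (−1.07, −1.05) were called lower too, which made 6 of 9 members in each HBE pair, where 17% and 17.6% of genes were called lower and 39.8% and 41.5% either way. In H1299 vector 2 of 8 members were lower and 1 higher (27.5% of genes called). In H1299 FLII 4 of 9 were lower, where 18.3% of genes were called lower and 36.2% either way. Among them were GPX1 (−3.26, 19 against 125 reads) and PRDX2 (−4.56, 4 against 72 reads). Their cytosolic reads are those of the FLII library in which genes typical of HBE stood at a median of 1.96%, against 0.176% in the vector library. The part of these genes in the 2 ratios was not tested.

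PRDX1 leaned to the nucleus in all 4 pairs, with 1.19 in H1299 vector (1.12 to 1.25), where it was called, and 0.99, 0.67 and 0.70 in the others. It had 691 RPKM in nuclear and 242 RPKM in cytosolic RNA of H1299 vector. PRDX4, the endoplasmic reticulum form, lay between −0.01 and 0.24. PRDX3 lay between −0.07 and 0.61. GPX3, kept in H1299 alone, had −0.04 (−0.54 to 0.46) and −0.17. PRDX6 had −0.32 in both H1299 pairs and −1.07 and −1.05 in HBE; the difference between the lines was not tested.

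The ratio moved with base composition. Across genes, which are not independent replicates, its Spearman correlation with GC content ran from −0.44 in H1299 vector to −0.62 in each of the other 3 pairs. GPX4 transcripts hold 65.2% GC, those of GPX1 62.6%, PRDX5 61.5% and PRDX2 58.6%, against 51.4% for PRDX1, 45.2% for PRDX6 and 40.7% for PRDX3. Set against genes of like GC content, GPX4 still lay between −1.41 and −1.03, and GPX1 in HBE at −1.20 in both pairs. GPX2 was at −1.77 and −1.75 and PRDX6 at −1.82 and −1.85 in HBE, whereas PRDX5 (−0.46 to −0.12) and PRDX2 in HBE (−0.45 and −0.37) fell short of the size rule. PRDX3 lay below 0 on that scale in all 4 pairs (−0.64 to −0.07). With total counts HBE NC had 3 members lower and 2 higher, where 5.16% of genes were called lower and 38.8% higher. HBE shFLII had 3 and 1 (5.8% and 40.6%), H1299 FLII 3 and 2 (6.65% and 34.5%) and H1299 vector 1 and 1 (5.59% and 23.4%). PRDX1 was then called higher and GPX4 lower in all 4 pairs, and PRDX5 was called in none. The median of all genes moved by 0.32 to 0.55.

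**Figure D5:**
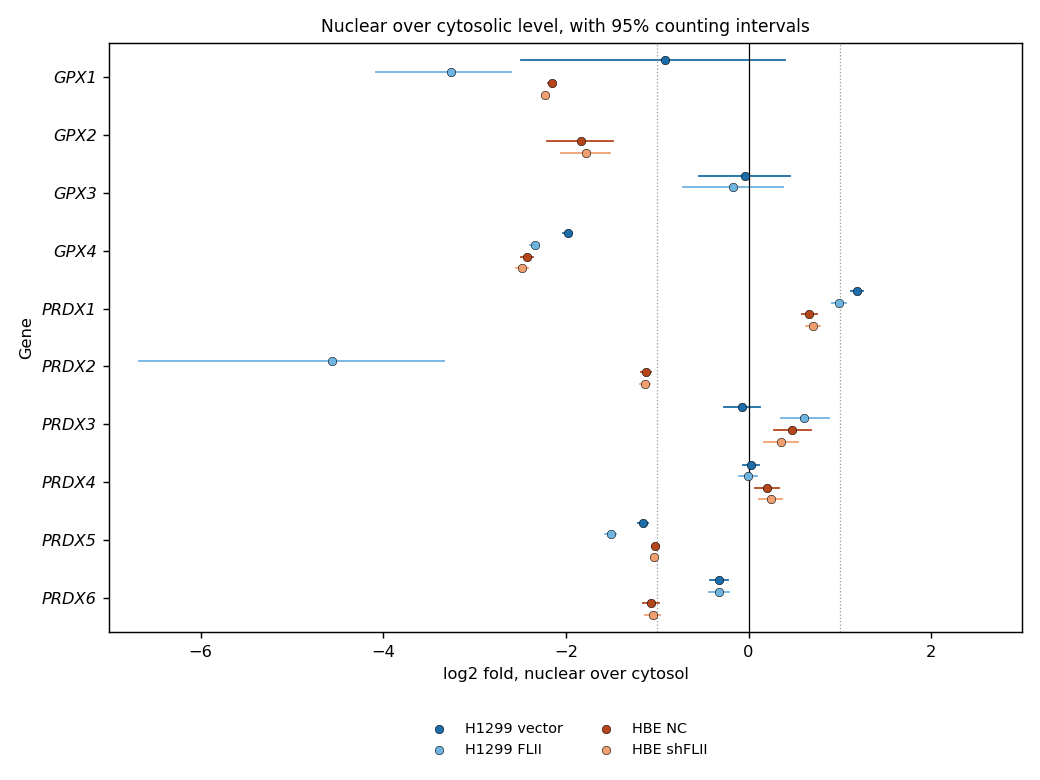
The log2 fold of nuclear over cytosolic RNA for each gene kept, with 95% counting intervals, in the 2 cultures of each line; dotted lines mark a fold of 2. GPX4 lies between −2.48 and −1.98 and PRDX1 between 0.67 and 1.19 in all 4 cultures.

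With FLII, the nuclear over cytosolic ratio was called for 1 of 8 members in H1299, where 5.2% of genes were called: GPX1 fell by 2.24 on the log2 scale (−3.67 to −0.82). This difference contains the cytosol call: the nuclear reads went from 7 to 19 and the cytosolic reads from 16 to 125. PRDX3 had 0.79 (0.47 to 1.11) and GPX4 −0.26. These differences moved with GC content, with a Spearman correlation across genes of −0.53. Against genes of like GC content PRDX3 was at 0.38, GPX4 at −0.05 and GPX1 at −2.03. In HBE none of 9 members was called (1.22% of genes), with differences between −0.12 and 0.06.

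By label, the RNC levels of GPX1 were 3.95 RPKM in H1299 vector, 5016 RPKM in H1299 FLII, 7008 RPKM in HBE NC and 14.2 RPKM in HBE shFLII. Those of PRDX2 were 0.158, 847, 414 and 0.780 RPKM in the same order. Both genes thus sided with the genes typical of HBE, against the label in the libraries labelled H1299 FLII and HBE shFLII. VIM did not follow this split, at 69.0, 25.9, 204 and 143 RPKM in the same order. By label, the overexpression pair called GPX1 at 10.09 and PRDX2 at 12.06 (6 members called, 49% of genes). The knockdown pair called them at −8.59 and −8.67 (6 members, 30.6%). GPX2 had 4.97, 93.7, 115 and 28.0 RPKM, and GPX3 3.37, 0.265, 2.19 and 3.70 RPKM. GPX4 had 4128, 2486, 2181 and 3080 RPKM and PRDX5 1674, 3855, 2095 and 1531 RPKM. With the 4 RNC libraries placed by label, none of the 10 members separated the lines, where 0.417% of genes did. Between the libraries labelled HBE NC and H1299 FLII, GPX1 differed by −0.10 (−0.11 to −0.09), and 3 members were called (49.6% of genes): PRDX2 (−1.61), PRDX5 (−1.46) and GPX3 (2.43). Between those labelled HBE shFLII and H1299 vector 4 members were called (21.5%): GPX1 (1.22), GPX2 (1.87), PRDX2 (1.60; 21 against 6 reads) and GPX4 (−1.05).

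RNC RNA was set against mRNA in the library pairs labelled H1299 vector and HBE NC. In H1299 vector 7 of 9 members were higher in RNC, where 32.6% of genes were called higher and 64.3% either way. GPX4 (5.52, 5.46 to 5.58) and PRDX5 (4.74) had the largest folds among well-read members, GPX2 (6.94) rested on 1 mRNA read, and PRDX1 had 0.07 and PRDX3 −0.61. In HBE NC 8 of 10 were higher (24.8% of genes higher, 41.8% either way), among them GPX1 (4.64, 4.60 to 4.68), GPX4 (3.32) and PRDX5 (2.22), while PRDX2 had 0.91 and PRDX3 −0.26. GPX3 was also called (3.06, 132 against 7 reads). That RNC library held genes typical of H1299 at a median of 3.31% of their level in H1299 vector cytosol. In HBE NC mRNA the median was 0.114%. The part of these genes in the GPX3 call was not tested. Scaling moved the folds of RNC over mRNA. With total counts the all-gene median shifted by −2.18 in H1299 vector and by −0.93 in HBE NC, which left 3 members higher and 2 lower in the first (8.96% of genes higher and 68.8% lower) and 5 higher and 1 lower in the second (12.7% and 45.9%). They also moved with GC content, with a Spearman correlation across genes of 0.53 in H1299 vector and 0.31 in HBE NC. Against genes of like GC content in H1299 vector, GPX4 was at 3.05, PRDX5 at 2.87 and PRDX6 at 2.43 (from 1.37), while GPX1 (0.78, from 2.64) and GPX3 (0.71) fell short of the size rule. In HBE NC, GPX1 was at 4.03, GPX4 at 2.37 and PRDX5 at 1.61 on that scale. Against cytosol, 4 of 9 members were higher in H1299 vector (22.2% of genes higher, 40.3% either way). In HBE NC 4 of 10 were higher and 1 lower, PRDX2 (−1.26), where 44.1% of genes were called either way.

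Genes around these peroxidases were called in both directions between the control lines. As 43.6% of all genes were called in mRNA, 48.9% in cytosol and 45.3% in nuclear RNA, nothing particular to the lists is read from their counts. Of 14 genes of the thioredoxin system and peroxiredoxin repair, 2 were higher and 4 lower in H1299 mRNA (43.6% of all genes called; median −0.50, against −0.01 over all genes). TXNIP, which binds and inhibits thioredoxin, had 0 reads in the 3 H1299 vector libraries and 817, 91 and 370 reads in HBE NC mRNA, cytosol and nuclear RNA, at least 235-fold, 65.7-fold and 125-fold lower. Thioredoxin itself (TXN) was called in none of the 3 pairs. Of 14 genes of glutathione supply and reduction, 3 were higher and 3 lower in mRNA (again beside 43.6%; median −0.58). SLC3A2, the heavy chain of the cystine transporter, was lower (−3.33 in mRNA, −2.75 in cytosol, −3.93 in nuclear RNA), as was GGT1, which splits extracellular glutathione (−3.84 in mRNA). CHAC1, which degrades glutathione, was higher (3.95, 1.72 and 1.97), as was the mitochondrial glutaredoxin GLRX5 (1.32, 1.25 and 1.16). Catalase (CAT) was lower in all 3 (−2.01, −2.34 and −2.01), and the extracellular superoxide dismutase SOD3 had 0 reads in H1299 against 45, 36 and 47; 2 of the 4 genes of that list were lower and 0 higher in each pair, with a median of −1.02 in mRNA.

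The machinery of selenocysteine was examined because GPX1 to GPX4 depend on it. Of 9 genes for its insertion, 3 were higher and 1 lower in H1299 mRNA (beside 43.6% of all genes; median −0.06): TRNAU1AP, which associates with the selenocysteine tRNA, was higher in all 3 pairs (1.84, 2.41 and 2.00), and the dedicated elongation factor EEFSEC lower (−1.29, −2.18 and −1.90). Of 11 other selenoproteins kept of 15 found, 1 was higher and 5 lower in mRNA (beside the same 43.6%; median −0.93). That count leaves out the selenoproteins TXNRD1, TXNRD2, TXNRD3 and SEPHS2, which were counted in the thioredoxin and insertion lists. In H1299 mRNA TXNRD1, TXNRD2 and SEPHS2 were called higher and TXNRD3 was not called. SELM was higher at 46.3 against 4.55 RPKM (3.05, 2.48 to 3.73), while SELO (−2.41), the methionine sulfoxide reductase MSRB1 (−1.11) and SEPP1 (−1.83, on 6 against 26 reads) were lower. Of the 4 remaining glutathione peroxidases, GPX8 alone had enough reads, and neither the control nor the FLII-modified line pairs called it.

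Few of these genes were called with FLII, as few of all genes were. In the 3 overexpression pairs none of the 5 lists with more than 1 gene kept had a called member. Of all genes, 0.798% were called there in mRNA, 2.68% in cytosol and 0.599% in nuclear RNA, so nothing particular to the lists is read from this. In knockdown mRNA the cystine transporter SLC7A11 was higher (1.05, 0.82 to 1.29; 459 against 223 reads) and GGT1 lower (−1.80, −2.27 to −1.36), with CHAC1 also lower, 3 of the 14 glutathione genes, where 4.95% of all genes were called. PSTK, a kinase of selenocysteine synthesis (1.72, 0.53 to 3.25; 24 against 7 reads), was higher and SEPP1 (−2.26, 5 against 26 reads) lower. In knockdown cytosol and nuclear RNA no gene of these lists was called, where 1.25% and 0.873% of all genes were.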

How the data were processed

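Each library came as 1 table of 23709 genes with 2 values. The read counts are whole reads per RefSeq gene as the authors deposited them. The RPKM values, per the file headers, are the authors' scaling of those counts, and they equal reads divided by length and library total to within 5.45e-07. The build was GRCh37 (hg19), per the submitters' processing notes; the sources used here name neither aligner nor counter. Counts of 2 libraries were scaled by the trimmed mean of M-values (edgeR 4.0.16, R 4.3.3), 0.5 reads were added, and exact conditional 95% intervals were computed; no p-value was. Intervals and floors (3 counts for a count of 0) cover counting error only, since reads carry no molecular identifiers. The change of nuclear over cytosolic RNA is the nuclear minus the cytosolic FLII fold, with a normal interval. The method was checked on simulated counts with counting error only, the 2 libraries of a pair being alike but for a set of changed genes. That check says nothing of spread between replicates, or of scaling where many genes differ. Genes typical of a line were those at 50 times or more the other line's level. GC content and active-site codons came from GENCODE version 29 (GRCh38), and promoters from RefSeq. Of the lists, at most 4 genes called alike in the 3 control pairs and 2 per FLII pair were named, by the interval bound farthest from 0 in mRNA or in that pair, and 5 genes of like pattern by Pearson r. Members and lists were chosen with earlier results of these data known. Alternatives were total counts, DESeq2 1.42.0 size factors, scaling without ribosomal protein genes, other read minimums, 5 reads added and RPKM plus 1, and, added after seeing the data, removal of the GC trend and other sets of libraries in the separation.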

Additional observations from a re-analysis of the deposited data

How the results depend on the processing

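With at least 100 reads required, the control nuclear line pair had 3 called members (5 before), where 16.6% of genes were called higher and 24.2% lower. Overexpression cytosol had 1 (2 before), beside 0.325% of genes higher and 0.453% lower. Overexpression nuclear had 0 (1 before), beside 0.0428% and 0%. The change of nuclear over cytosol with overexpression had 0 (1 before), beside 2.29% and 0.17%. These drops were by construction, since fewer genes were kept. With 1 read required the change of nuclear over cytosol had 2 called members, beside 3.4% of genes higher and 1.24% lower. Overexpression nuclear also had 0 with 5 reads added (0.207% and 0.0921% of genes) and with RPKM plus 1 (0.533% in each direction). With the 4 RNC libraries by label, 0 members separated the lines (5 before), where 0.417% of genes did (26.5% before). In RNC over mRNA of H1299 vector, GPX3 turned from 1.44 to −0.74 with total counts and −0.60 with RPKM, and PRDX6 from 1.37 to −0.82 and −0.81; the cause was not tested. Depth limited GPX1, GPX2 and PRDX2 in H1299 and GPX3 in HBE. No paired analysis was possible because the groups compared share only 1 replicate number. A model over the 12 libraries with the kind of RNA as a block was not fitted, since the fractions of a culture are not its replicates.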
